A study of Caenorhabditis elegans with 26 samples.

Results

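Small RNAs mapping to a transgene were measured in worms of 4 strains in which a mutator protein was tethered through lambdaN, and in the tethered wild type. These 10 libraries, 2 per group, were taken by their labels from a series of 26 libraries of whole Caenorhabditis elegans. The tethered proteins were MUT-14, MUT-16 and 2 variants of MUT-16, which the labels call MUT-16(de773-1050) and MUT-16(ex773-1050) and define no further. The comparison group was the strain that the labels call the lambdaN tethered strain wild type; they do not say whether it carries lambdaN alone or no fusion. All groups are listed as untreated. Developmental stage, the promoter and insertion site of each construct, the reporter sequence and the level of each fusion protein are not given in these sources. Nothing in the labels says that a group's 2 libraries come from different cultures, so their spread, and any p-value built on it, may be technical.

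Mutator proteins act in the germline at perinuclear granules, the mutator foci. There RNA-dependent RNA polymerases copy target transcripts into secondary small RNAs, which Argonautes of the WAGO group then use to silence those targets. MUT-16 is the scaffold on which the foci assemble and on which the other mutator proteins depend for their place there. Its C-terminal part, residues 773 to 1050, is known from earlier work on MUT-16 as a region needed for the foci to form. MUT-14 is a DEAD-box RNA helicase of the foci that acts redundantly with its paralogue SMUT-1. LambdaN, a peptide from a bacteriophage, recognises an RNA hairpin named boxB. Fusing a protein to it brings that protein to a transcript with boxB, and small-RNA reads on that transcript are then counted.

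The gene mut-16 (WBGene00003508) is annotated on the plus strand of chromosome I, from 10080159 to 10085765 in WBcel235. It has 2 protein-coding transcripts of 14 exons each. They encode 1054 residues (B0379.3a.1) and 1050 residues (B0379.3b.1), and the labels do not say which one the numbering follows. Residues 773 to 1050 are 278 residues, 26.4% of the longer protein and 26.5% of the shorter one. In both transcripts their codons lie in exons 13 and 14. They span 10084378 to 10085504 in B0379.3a.1 and 10084390 to 10085516 in B0379.3b.1, where the region reaches the last residue of the protein. The gene mut-14 (WBGene00003507) lies on the minus strand of chromosome V, from 5658713 to 5660704, with 5 exons and 528 residues. Its paralogue smut-1 lies on the same chromosome, from 6097105 to 6099083, and encodes 520 residues.

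Reads on the transgene were high with tethered MUT-14, with tethered full MUT-16 and with MUT-16(ex773-1050), and low with MUT-16(de773-1050). MUT-16(ex773-1050) had 18.3 times as many reads as the tethered wild type, MUT-14 13.0 times and MUT-16 6.37 times. MUT-16(de773-1050) had 0.627 times as many, which is below the control. Between the MUT-16 constructs, MUT-16(de773-1050) had 10.2-fold fewer reads than full MUT-16, and MUT-16(ex773-1050) had 2.88-fold more. No library of 1 of these 5 groups lay within the range of another group.

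**Figure D1:**
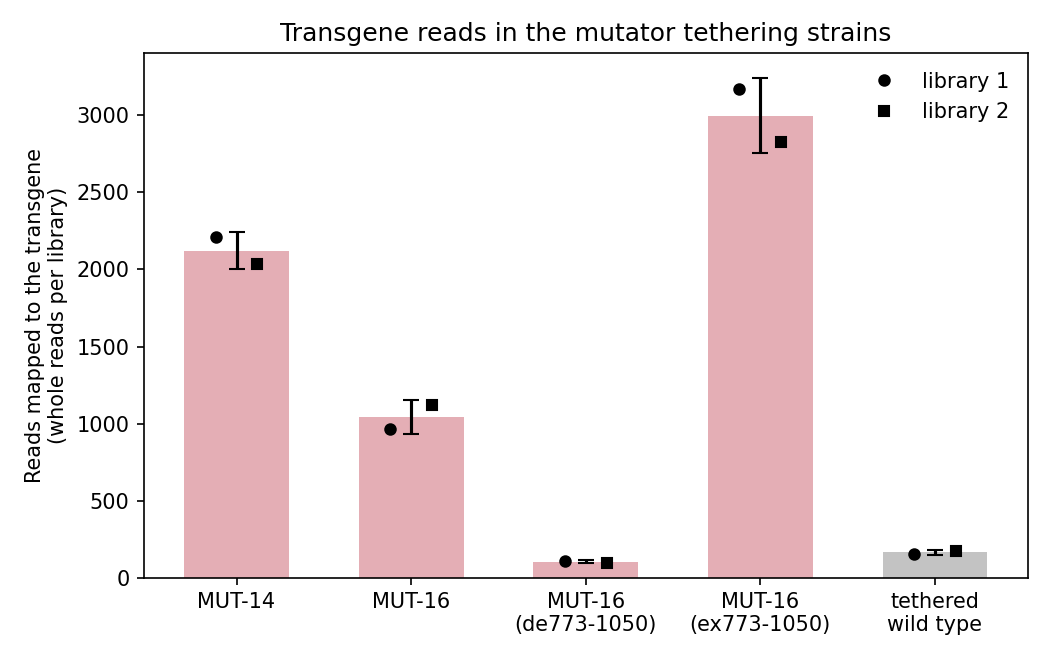
Reads mapped to the transgene (whole reads per library, linear axis from 0) for the 4 mutator constructs and the tethered wild type. Bars are means of 2 libraries, error bars are SD, circles and squares are library 1 and library 2. MUT-16(ex773-1050) averaged 2998 reads and MUT-16(de773-1050) 102.5, against 163.5 in the tethered wild type.

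The first question was whether bringing a mutator protein to the transcript went with more small RNAs from it. Tethered MUT-14, the helicase, gave 2208 and 2037 reads, against 152 and 175 reads in the tethered wild type. Both MUT-14 libraries were thus far above both control libraries. The means were 2122 ± 121 and 163.5 ± 16.3 reads (SD, n = 2 each), a difference of 3.69 on the log2(reads + 1) scale with an SE of 0.13. The SE here and below comes from the spread between libraries pooled over the 5 groups, an SD of 0.128 on that scale, or 1.09-fold. The 4 ratios between 1 MUT-14 library and 1 control library ran between 11.6 and 14.5. Counting error alone gave the ratio of summed reads a 95% interval of 11.6 to 14.6, if all libraries were of equal depth.

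Tethered full MUT-16, the scaffold, gave 962 and 1120 reads, against the same 152 and 175 reads in the tethered wild type. Its libraries again lay above both controls, but below both MUT-14 libraries. The mean was 1041 ± 112 reads (SD, n = 2), and the difference from the tethered wild type was 2.66 on the log2 scale (SE 0.13). Library ratios ran between 5.50 and 7.37. MUT-14 had 2.04-fold more reads than MUT-16, with library ratios between 1.82 and 2.30; this pair was chosen after its values were seen and was not tested.

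The second question was how reads differed between full MUT-16 and the 2 variants whose labels name residues 773 to 1050. MUT-16(de773-1050) gave 109 and 96 reads, against 962 and 1120 reads with full MUT-16. Both of its libraries lay below both MUT-16 libraries and also below both tethered wild type libraries. The mean was 102.5 ± 9.19 reads (SD, n = 2), and the difference from full MUT-16 was −3.33 on the log2 scale (SE 0.13). Each MUT-16(de773-1050) library was between 8.83-fold and 11.7-fold lower than a MUT-16 library, with a 95% counting interval of 8.79 to 11.8 for the summed reads. Against the tethered wild type the difference was −0.67 (SE 0.13), and library ratios ran between 0.549 and 0.717. The depth of these libraries is not known, and its part in this second difference was not tested. A depth 1.39-fold lower in the MUT-16(de773-1050) libraries would be enough to bring the nearest libraries of these groups level.

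MUT-16(ex773-1050) gave 3171 and 2825 reads, against 962 and 1120 reads with full MUT-16. These were the 2 highest libraries of the tethering assay, and both lay above both MUT-16 libraries. The mean was 2998 ± 245 reads (SD, n = 2), and the difference from full MUT-16 was 1.53 on the log2 scale (SE 0.13). Library ratios ran between 2.52 and 3.30, with a 95% counting interval of 2.74 to 3.03. Against the tethered wild type the difference was 4.19 (SE 0.13), with library ratios between 16.1 and 20.9. The variants differed most from each other: MUT-16(ex773-1050) had 29.2 times the reads of MUT-16(de773-1050), with library ratios between 25.9 and 33.0. Over the nearest group, MUT-14, MUT-16(ex773-1050) was 1.41-fold higher, with library ratios between 1.28 and 1.56. These last 2 pairs were also chosen after their values were seen and were not tested.

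**Figure D2:**
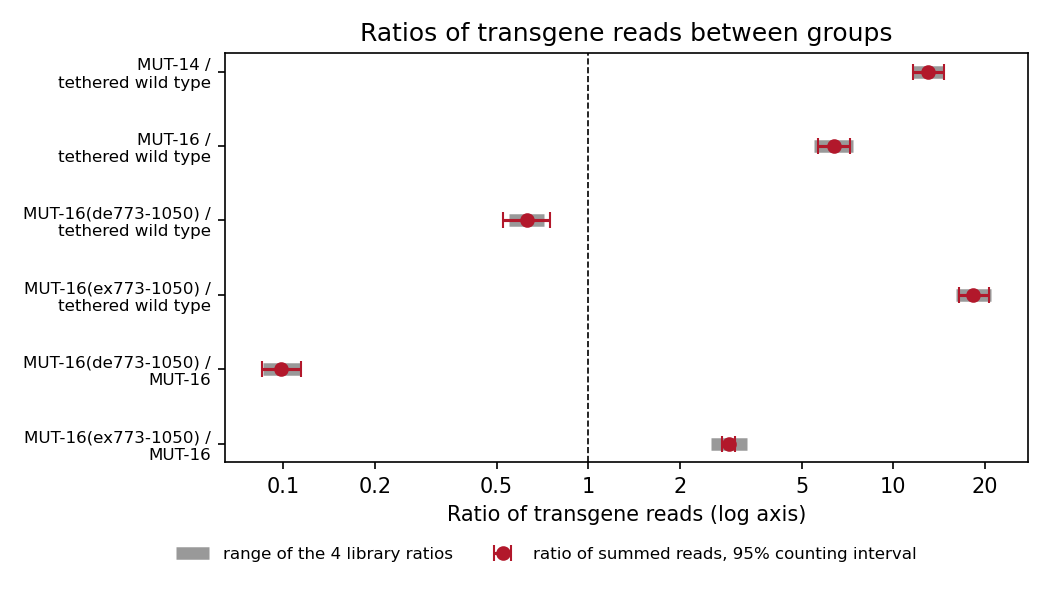
Ratios of transgene reads for the 6 pairs compared, on a log axis, the first-named construct over the second-named one. Points are ratios of summed reads with 95% counting intervals, grey bars span the 4 library-to-library ratios, and the dashed line marks a ratio of 1. No grey bar reaches 1; the nearest is MUT-16(de773-1050) over the tethered wild type, whose highest library ratio is 0.717.

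Counted as reads above the tethered wild type mean, MUT-16(ex773-1050) held 2834, MUT-14 1959 and MUT-16 877.5. On this measure MUT-16(ex773-1050) was 3.23 times and MUT-14 2.23 times full MUT-16. The subtraction takes depth as equal in all libraries and makes these ratios larger than the 2.88 and 2.04 of the reads themselves. MUT-16(de773-1050) stood at −61.00, below the control mean.

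For each of these 6 pairs an exact 2-sided permutation test gave p = 0.333 (also 0.333 adjusted by Benjamini-Hochberg over the 6 pairs). This is the smallest p that 2 libraries against 2 allow, so no single pair could pass a threshold of 0.05. The 4 pairs with the tethered wild type share its 2 libraries, and the 2 pairs with full MUT-16 share that group's. Taken over the 5 groups together, libraries of a group lay closer to each other than in any other of the 945 ways to form 5 pairs (F = 589, exact permutation p = 0.00106, the smallest these arrangements allow). For the 3 MUT-16 constructs alone the F statistic was 681, again the highest of its 15 arrangements, where the smallest p is 0.0667. The mean of all 8 mutator libraries was 2.47 above the tethered wild type on the log2 scale. This mean includes MUT-16(de773-1050), which lay below the control. The difference did not pass an exact 2-sided permutation test (p = 0.2 over 45 splits, smallest possible 0.0222). The 8 libraries came from 4 strains, 3 of them with forms of MUT-16, so they were not independent units of a shared condition. That test therefore says nothing of any strain by itself and allows no conclusion on mutator proteins as a class.

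Depth bears on all of these values, since the table gives 1 number per library and the sources used here state no totals for the tethered libraries. Nor is it stated whether the numbers were scaled. Totals can be summed for the 6 untethered libraries, 2 each of mut-16(DE6R), rde-3 mut-16(DE6R) and WT. Across these genotypes, which differ in small-RNA pathway genes and so not in depth alone, counted reads varied by up to 3.05-fold. Between the 2 libraries of a genotype they varied 2.53-fold in mut-16(DE6R), 1.13-fold in rde-3 mut-16(DE6R) and 1.18-fold in WT. The differences of MUT-14, MUT-16 and MUT-16(ex773-1050) from the tethered wild type, and of MUT-16(de773-1050) from MUT-16, exceeded the 3.05-fold span in each of their 4 library ratios, the smallest at 5.50-fold. MUT-16(ex773-1050) over MUT-16, at 2.52-fold between the nearest libraries, did not, and neither did MUT-16(de773-1050) against the tethered wild type. The span is from other strains and sets no limit on how far depth differed between tethered libraries, which was not tested.

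Libraries of 1 group agreed closely. The coefficient of variation was 5.70% to 10.7% in the 5 groups, and the higher library exceeded the lower by 1.02-fold to 1.31-fold over all 10 tethering groups. By an exact 2-sided binomial test of an even split, libraries differed beyond counting error in MUT-16(ex773-1050) (p = 8.33e-06), MUT-16 (p = 5.77e-04) and MUT-14 (p = 0.00907), but not in MUT-16(de773-1050) (p = 0.402) or the tethered wild type (p = 0.224). If the numbers are unscaled, the spread between libraries in the 3 groups with many reads exceeded counting error at equal depth. Counting intervals there are then too narrow. The coefficient of variation was similar in the groups with few reads, 8.97% in MUT-16(de773-1050) and 9.95% in the tethered wild type. With so few reads the test is less able to show an excess, so the intervals there may be too narrow as well. Over all 10 tethering groups, libraries differed in 4 at 0.05 by this test, which assumes equal depth and unscaled counts.

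The 5 other tethered proteins lie outside the mutator complex, and their reads are given for comparison. They are the P granule scaffold PGL-3, the Piwi protein PRG-1, the primary Argonaute RDE-1 and the secondary Argonautes WAGO-1 and WAGO-3. Their 10 libraries held 71 to 191 reads with a median of 131. Of these, 3 were at or above the lower tethered wild type library, at 152 reads. Reads below the control were thus not particular to MUT-16(de773-1050). The lowest library of MUT-14, MUT-16 and MUT-16(ex773-1050), at 962 reads, was 5.04-fold above the highest of the other 14 libraries, at 191 reads. This split of the constructs was made after their values were seen, was not tested and takes depth as equal. MUT-16(de773-1050) lay among those others: 2 libraries of the other proteins were below both of its libraries, 1 lay between them and 7 were above both. By mean it held rank 9 of 10 groups, between WAGO-3 and WAGO-1, and its libraries overlapped with those of WAGO-3 but not of WAGO-1.

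**Figure D3:**
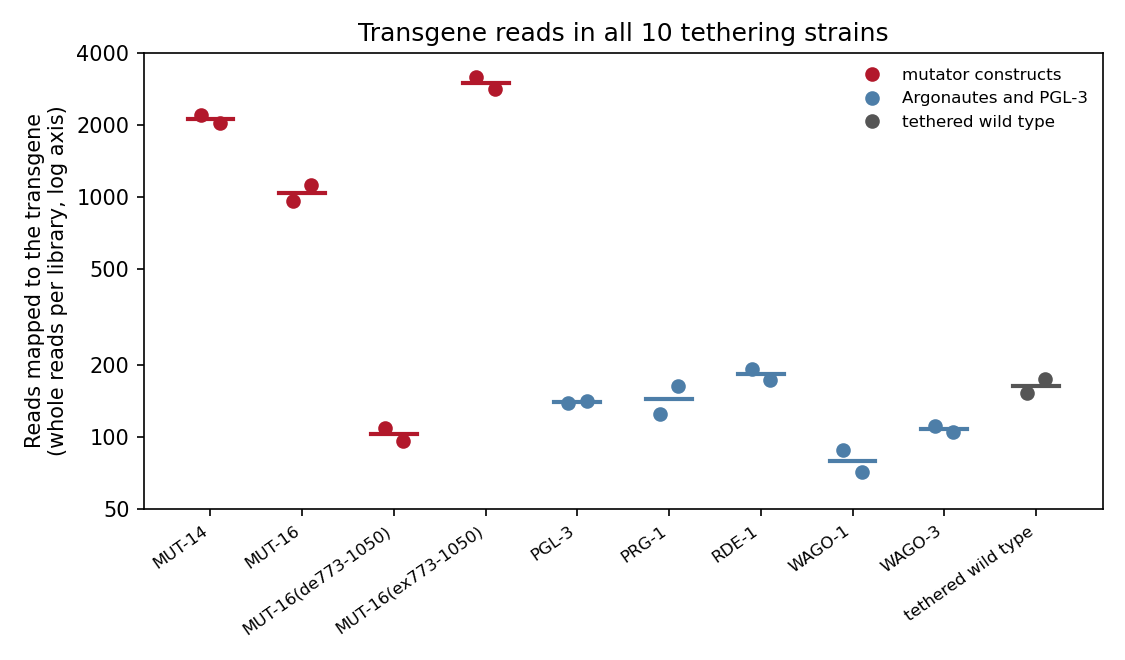
Reads mapped to the transgene (whole reads per library, log axis) in all 10 tethering strains. Points are libraries and bars are means of 2; mutator constructs are red, Argonautes and PGL-3 blue, and the tethered wild type grey. MUT-14, MUT-16 and MUT-16(ex773-1050) lie at or above 962 reads, and every other library lies at or below 191 reads.

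Reads on the genes of the tethered proteins were available for the untethered genotypes only. In wild type worms without a tethered protein, mut-14 held 124 and 157 reads, smut-1 held 53 and 60, and mut-16 held 5 and 2. In the tethered strains the transgene was the one target analysed here.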

How the data were processed

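Per the labels' protocols, small RNAs were extracted with Trizol, treated with PIR-1, a phosphatase of RNA triphosphates, ligated to linkers, amplified and size-selected on native gels. The submitters' processing notes name cutadapt 4.9, Bowtie 1.3.1 and the WBcel235 build, without their settings. The authors deposited whole-number counts, which the table names as reads mapped to the transgene, 1 per tethered library. The sources used here do not state strand, the handling of multi-mapping reads and duplicates, totals or any scaling. With 1 feature and no totals, no count model was fitted.

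Reads were tested as log2(reads + 1) by exact permutation, with Benjamini-Hochberg adjustment over 6 pairs (Python 3.11.15, numpy 2.4.6, scipy 1.17.1), in code tested on simulated data. Counting intervals (95%, exact conditional binomial) cover counting error only and assume equal depth and unscaled counts. Gene models are from Ensembl release 115. Every construct was described whatever its values. The constructs and gene lists were chosen with earlier results of these data known. Alternatives were linear reads, pseudocounts of 0.5 and 10, each library left out, a replicate block and, added after seeing the data, 2 depth bounds. A planned test of mutator strains against the other strains is not reported, since 3 of its 4 mutator strains carry forms of MUT-16 and are not independent units. Replicate numbers could not be checked as pairs on 1 value per library.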

Additional observations from a re-analysis of the deposited data

How the results depend on the processing

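For the 6 pairs, all 48 values under linear reads, other pseudocounts, a left-out library or a replicate block kept their direction. With 1 library left out, the log2 difference from the tethered wild type was 3.59 to 3.79 for MUT-14, 2.55 to 2.77 for MUT-16, −0.77 to −0.57 for MUT-16(de773-1050) and 4.09 to 4.29 for MUT-16(ex773-1050). From full MUT-16 it was −3.44 to −3.22 for MUT-16(de773-1050) and 1.42 to 1.64 for MUT-16(ex773-1050). The exact test of 2 libraries against 2 cannot pass 0.05, so only sizes are compared here. The numbers of the libraries are not known to pair them. With the replicate number as a block, exact permutation tests gave p = 0.5 for each pair. They gave 0.00833 for the 5 groups together and 0.167 for the 3 MUT-16 groups. Each of these is the smallest p the block allows. The 4 mutator groups against the tethered wild type had p = 0.240 in the blocked permutation test. That comparison again pools libraries of 4 strains that are not independent units, so no conclusion is drawn from it. Depth is a limit for all 6 pairs, since no totals are stated for the tethered libraries. The untethered totals are from other strains and set no limit on it. In bounds added after seeing the data, the higher group was divided by 3.05, the span of totals across the 3 untethered genotypes, or by 2.53, the widest span within 1 of them. With 3.05, MUT-16(de773-1050) against the tethered wild type turned to 0.94, and MUT-16(ex773-1050) against MUT-16 to −0.08 on the log2 scale, by the construction of the bound, and the other 4 pairs kept their direction. With 2.53, MUT-16(de773-1050) against the tethered wild type turned to 0.67 and MUT-16(ex773-1050) against MUT-16 stayed above 0, at 0.19. All 10 tethering groups together gave a permutation p of 1.0e-05, the smallest that 100000 random arrangements can give.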
